A study of Rattus norvegicus with 10 samples.

Results

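The genes of the rat major histocompatibility complex (MHC), called RT1 in this species, were described in lung of Cmg2-KO and WT rats. Members were the annotated genes of the authors' deposited table on chromosome 20 with a start from 1500000 to 5500000, together with any symbol starting with RT1-. This gave 16 of the 1319 genes in the table, and all symbols starting with RT1- lay inside that window. A further 2 unnamed transcript models in the window were left out by the rule. The table holds only genes to which the authors gave a p-value under 0.05 for Cmg2-KO against WT, so the members were selected on the genotype difference itself, by p-value. Their genotype values are therefore given as a description, without a test, and MHC genes outside the table were not analysed here.

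Cmg2-KO rats lack Cmg2 (Antxr2), the gene of an anthrax toxin receptor that binds extracellular matrix proteins, and WT rats carry it. Both groups were Sprague Dawley rats, 8 weeks old, and lung RNA was sequenced in 5 libraries per genotype. How the mutant allele was made is not given in the labels, and neither is whether the libraries of a genotype came from separate animals, so any spread given here is that between libraries. Values are read counts divided by the authors' size factor for each library, called scaled counts, and 1 read was worth between 0.869 and 1.11 of them. The targeted transcript, Antxr2, was not analysed here and gives no check of the labels. Of 8 lung markers, Sftpb and Scgb1a1 were in the table, at means of 45492 and 116928 scaled counts in Cmg2-KO and 54112 and 157447 in WT. Of the T cell, B cell, macrophage, dendritic cell and natural killer cell markers, only Flt3, a cytokine receptor gene of dendritic cells, was in the table, at 295 ± 38.5 scaled counts in Cmg2-KO and 245 ± 32.4 in WT (SD, n = 5); the others were not analysed here, and the part of cell numbers in the results was not tested. In whole lung, fewer cells of a type and less RNA per cell cannot be told apart.

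The MHC is a dense block of immune genes. Class I genes encode the heavy chains that, with beta-2-microglobulin, show peptides from inside the cell to CD8+ T cells and natural killer cells; classical class I molecules are broadly expressed, and nonclassical ones such as the M family are more restricted. Peptides reach them through the TAP transporter of the endoplasmic reticulum. The class III part of the region holds no antigen-presenting genes and includes complement C4, the inducible Hsp70 genes and several unrelated housekeeping genes.

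The members went both ways. In Cmg2-KO lung 8 of 16 had a higher mean log2 value than in WT lung and 8 a lower one, where 48.2% of all genes in the table were higher and 51.8% lower. Their median log2 fold change was -0.10, against -0.15 over all genes in the table. On the rest of chromosome 20 the table held 33 annotated genes, of which 9 were higher and 24 lower, with a median log2 fold change of -0.28. The genotypes did not overlap at 5 members, 3 higher (LOC103689965, Pbx2 and Sapcd1) and 2 lower (RT1-M6-2 and AABR07044354.1) in Cmg2-KO. Over all 1319 genes, 9.25% were higher without overlap and 7.05% lower without overlap, and since the rule used this contrast nothing is read from the comparison. The authors' deposited table gives 2 members an adjusted p under 0.05, the higher LOC103689965 (0.0146) and the lower RT1-M6-2 (2.9e-06), as it does 5.46% of all genes, 3.11% higher and 2.35% lower. No member passed limma's adjusted threshold, which 0.229% of genes passed. Adjusted p under 0.05 was reached by 0 members with edgeR (0.0765% of all genes tested) and by 1 with DESeq2, RT1-M6-2 (3.75%). Unadjusted p under 0.05 was reached by 10 of 16 members with limma, where 79.1% of all genes tested reached it, by 7 with edgeR (64.0%) and by 10 with DESeq2 (71.7%). These shares are high because the table was itself selected by p-value, and nothing is read from the members' counts. At the weak end of the list, Vwa7 had a p-value of 0.0475 in the authors' deposited table, just inside the limit that put a gene there. The nearest annotated gene in the table beyond the upper end of the window was Itpr3. It had 904 ± 126 scaled counts in Cmg2-KO and 1104 ± 72.5 in WT (SD, n = 5).

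**Figure D1:**
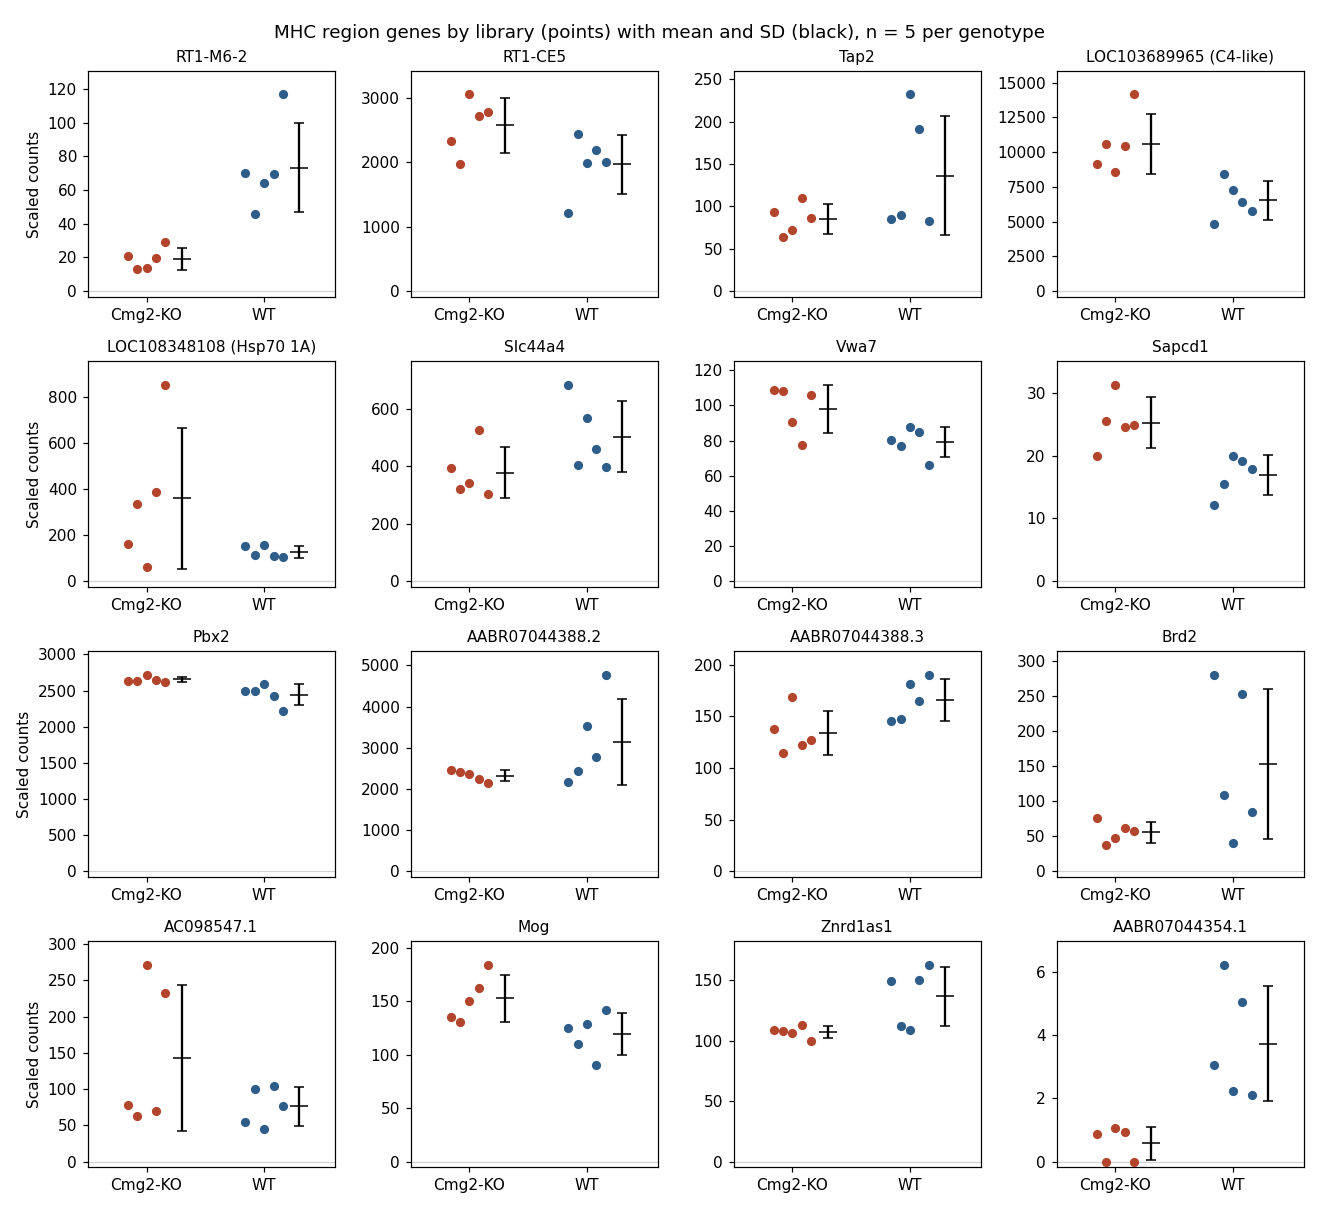
Scaled counts (vertical axes, linear) of each of the 16 MHC region genes in the 5 Cmg2-KO libraries (left, red) and 5 WT libraries (right, blue); black marks are the mean and SD. RT1-M6-2 lies between 13.2 and 29.1 in Cmg2-KO and between 45.6 and 117 in WT, and the C4-like gene between 8591 and 14158 in Cmg2-KO and between 4817 and 8429 in WT.

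Among class I genes, RT1-M6-2 was much lower in Cmg2-KO lung and RT1-CE5 moderately higher. RT1-M6-2 (chromosome 20, 2076267 to 2081885, plus strand, coordinates as in the authors' table, whose build is not given in the sources used here) is a nonclassical class I gene of the M family. Its libraries had 20.9, 13.2, 13.6, 19.9 and 29.1 scaled counts in Cmg2-KO 1 to 5, against 70.1, 45.6, 64.4, 69.8 and 117 in WT 1 to 5. The highest Cmg2-KO library, replicate 5, lay below the lowest WT library, replicate 2, and WT 5 stood above the other WT libraries. The WT mean was 3.80 times the Cmg2-KO mean, and the log2 fold change was -1.86 ± 0.29 (SE). The gene was weakly expressed in both genotypes: 101 reads in all lay behind the Cmg2-KO values. The spread relative to the mean was alike in the genotypes, with a coefficient of variation of 33.7% in Cmg2-KO and 35.8% in WT.

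RT1-M6-2 has a close copy, RT1-M6-1, which was not in the table. The sequences around their annotated starts are printed because they show how alike the copies are, and reads from such copies may be shared between them in counting. They are the RefSeq promoters on build GRCr8, each with 250 bases before and 50 after the start, 5′ to 3′ on the gene's own strand. RT1-M6-2 is at chr20:1588283-1588582 and RT1-M6-1 at chr20:1571221-1571520, both on the plus strand of that build, which may differ from the authors' build. Capitals mark bases that differ or face a gap inside the aligned stretch, and bases overhanging at either end are in lower case.
RT1-M6-2: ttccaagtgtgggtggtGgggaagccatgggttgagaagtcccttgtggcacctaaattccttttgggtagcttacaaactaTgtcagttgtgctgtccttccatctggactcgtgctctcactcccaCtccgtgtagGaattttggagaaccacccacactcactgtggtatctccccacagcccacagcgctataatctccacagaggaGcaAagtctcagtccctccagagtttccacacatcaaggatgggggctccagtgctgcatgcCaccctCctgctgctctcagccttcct
RT1-M6-1: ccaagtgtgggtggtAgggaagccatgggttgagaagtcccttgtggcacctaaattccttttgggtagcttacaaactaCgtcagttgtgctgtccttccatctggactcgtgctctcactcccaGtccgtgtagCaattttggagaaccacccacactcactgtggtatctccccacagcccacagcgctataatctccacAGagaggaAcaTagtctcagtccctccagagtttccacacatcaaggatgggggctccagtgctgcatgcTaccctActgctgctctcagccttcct
The copies were identical at 290 of 300 aligned positions, or 96.7%, and at 48 of the 50 after the start of RT1-M6-2.

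Znrd1as1 (chromosome 20, 2077072 to 2088389, minus strand), named as an antisense transcript of Znrd1, overlaps the span of RT1-M6-2 on the other strand over 4814 bases. The authors' table lists it as protein coding. It had 109, 108, 107, 113 and 99.8 scaled counts in Cmg2-KO 1 to 5, against 149, 112, 109, 151 and 163 in WT 1 to 5. Cmg2-KO libraries lay close together, while WT libraries formed a lower pair, WT 2 and WT 3, and a higher trio. The log2 fold change was -0.33 ± 0.14 (SE). Nothing in the sources says whether libraries kept strand, and reads of the overlapping stretch cannot be told apart between the genes. After the genotype means were subtracted, Pearson's r between these neighbours over the 10 libraries was 0.47, and r was 0.60 between RT1-M6-2 and Mog, the next member at lower coordinates.

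Mog (chromosome 20, 2004052 to 2014286, plus strand) encodes a myelin surface protein and sits at the class I end of the region. It had 136, 130.0, 150.4, 163 and 184 scaled counts in Cmg2-KO 1 to 5, against 125, 109.9, 129, 89.998 and 142 in WT 1 to 5. The genotypes overlapped, with 3 Cmg2-KO libraries above the highest WT library, and the log2 fold change was 0.36 ± 0.15 (SE). The processed pseudogene AABR07044354.1 (chromosome 20, 3018323 to 3019709, minus strand) was near the detection limit, with 1, 0, 1, 1 and 0 reads in Cmg2-KO 1 to 5, against 3, 6, 2 and 2 reads in WT 1, 2, 3 and 5. At 5.06 scaled counts, WT 4 was also above every Cmg2-KO library. With so few reads no fold is given.

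RT1-CE5 (chromosome 20, 4892702 to 4896991, minus strand), a class I gene of the CE family, was abundant. It had 2335, 1972, 3051, 2710.1 and 2781 scaled counts in Cmg2-KO 1 to 5, against 1206, 2441, 1992, 2190.3 and 1997 in WT 1 to 5. The genotypes overlapped: 3 Cmg2-KO libraries exceeded the highest WT library, and WT 1 stood far below all others. The log2 fold change was 0.41 ± 0.18 (SE), and 0.24 without WT 1. Close class I copies can share reads, so its level is uncertain. Per kilobase of gene length the mean levels were 1392 scaled counts for RT1-CE5 in Cmg2-KO and 1065 in WT, against 18.4 for RT1-M6-2 in Cmg2-KO and 69.9 in WT. On this length scale RT1-CE5 was far more abundant than RT1-M6-2 in each genotype.

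These class I genes differ in the sequence before their starts. Motifs were searched on both strands of the 27457 RefSeq promoters of 300 bases: the enhancer A core of class I genes (GGGGAATC, in 0.75% of promoters), the class I interferon response core (GAAGTGAAA, in 0.506%), the interferon-stimulated response element (GAAA, any pair of bases, then GAAA, in 3.77%), the CCAAT box (CCAAT, in 37.7%), the cAMP response element (TGACGTCA, in 1.91%) and the heat shock element (GAA, TTC and GAA with any pair of bases between neighbours, in 0.736%). Promoters were found for 8 of the 16 members. The promoter of RT1-CE5 is shown because it holds the class I arrangement in which enhancer A is followed by the interferon element, and that of Tap2 because it holds both interferon motifs in overlap. RT1-CE5 is at chr20:3484041-3484340 and Tap2 at chr20:4652247-4652546 of GRCr8, both on the minus strand and printed 5′ to 3′ along the gene, with motif matches in capitals; in RT1-CE5 the enhancer A and interferon matches read on the strand opposite to the one printed.
RT1-CE5: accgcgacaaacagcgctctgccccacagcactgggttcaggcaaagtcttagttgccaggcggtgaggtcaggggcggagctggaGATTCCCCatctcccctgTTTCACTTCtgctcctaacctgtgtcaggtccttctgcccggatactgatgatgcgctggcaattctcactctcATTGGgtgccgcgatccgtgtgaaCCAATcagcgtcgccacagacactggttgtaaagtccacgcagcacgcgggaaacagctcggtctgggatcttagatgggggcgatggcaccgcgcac
Tap2: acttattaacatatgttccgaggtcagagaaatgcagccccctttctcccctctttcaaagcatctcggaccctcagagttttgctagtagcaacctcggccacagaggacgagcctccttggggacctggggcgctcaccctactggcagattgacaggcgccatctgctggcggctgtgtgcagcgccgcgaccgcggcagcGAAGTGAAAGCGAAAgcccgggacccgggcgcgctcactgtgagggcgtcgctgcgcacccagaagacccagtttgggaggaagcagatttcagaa
The window of RT1-M6-2, printed above, had no match to any of these 6 motifs, and neither had those of Pbx2 and Vwa7. Znrd1as1 had the cAMP response element, Slc44a4 a CCAAT box and Brd2 both. A lack of matches says only that these letters are not in the window, and a match is a description of sequence, not of factor binding.

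Tap2 (chromosome 20, 3995544 to 4009587, plus strand) encodes a subunit of the TAP transporter that carries peptides to class I molecules. It had 93.0, 64.1, 72.1, 109.7 and 86.3 scaled counts in Cmg2-KO 1 to 5, against 85.3, 89.2, 232, 191 and 83.1 in WT 1 to 5. Only WT 3 and WT 4 stood above the Cmg2-KO range, and the other 3 WT libraries lay inside it. The log2 fold change was -0.55 ± 0.31 (SE), and -0.32 without WT 3. Of the 21 genes on a list of class I antigen processing, 3 were in the table, Tap2 and a pair on other chromosomes. The authors' deposited table gives none of them an adjusted p under 0.05, which it gives 5.46% of all genes. Erap1, the aminopeptidase that trims peptides for class I, had 2447 ± 52.4 scaled counts in Cmg2-KO and 2189.7 ± 93.2 in WT (SD, n = 5). Tapbpl, a peptide editor related to tapasin, had 1589 ± 85.4 in Cmg2-KO and 1393 ± 74.8 in WT. Every Cmg2-KO library lay above every WT library at both of these genes, as at 9.25% of all genes in the table. Tap2 was lower by mean, with overlap, and over the 3 genes the median was 0.16 on the log2 scale. The table was selected by p-value in this contrast, so nothing is read from these counts. Of 19 class II presentation genes none was in the table, and of 30 interferon-stimulated genes only Rsad2 was, at 278 ± 73.8 scaled counts in Cmg2-KO and 214 ± 28.0 in WT, with overlap.

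Genes for receptors and relatives of class I molecules lie on other chromosomes, and 11 of 37 on the list were in the table, 8 higher and 3 lower in Cmg2-KO, where 48.2% of all genes in the table were higher. Their median log2 fold change was 0.76 over the 10 with reads in both genotypes. The authors' deposited table gives 3 of them an adjusted p under 0.05, Micb, Klrc2 and Lilrb3, all higher, as it does 3.11% of all genes. These genes were also selected by p-value in this contrast, so nothing is read from their counts. Klrc2, Klra1, Klre1, Klra2, Klri1 and Klri2 all lie on chromosome 4. Micb, which encodes a relative of class I molecules, had 398 ± 142 scaled counts in Cmg2-KO and 171 ± 14.9 in WT (SD, n = 5). Its genotypes overlapped because the lowest Cmg2-KO library, at 147, lay below all WT libraries. Lilrb3, a leukocyte immunoglobulin-like receptor gene, had 22.5 ± 11.3 in Cmg2-KO and 5.05 ± 1.73 in WT, again with overlap. Klrc2, an NKG2 receptor gene of natural killer cells, had 123 ± 33.5 scaled counts in Cmg2-KO and 60.0 ± 18.9 in WT (SD, n = 5), without overlap. Klra1, a Ly49-type receptor gene, was the reverse, with 0 to 3.13 scaled counts across Cmg2-KO libraries and 4.44 to 14.5 across WT libraries. Pirb, a paired immunoglobulin-like receptor gene, had 39 reads over the Cmg2-KO libraries and was at 0 in every WT library. Its Cmg2-KO libraries ran from 0 to 23.5 scaled counts, so the genotypes overlapped. Close copies in these receptor families can share reads.

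In the class III part, the complement C4-like gene was the most abundant member and was higher in Cmg2-KO lung. LOC103689965 (chromosome 20, 4302347 to 4508214, minus strand) is described in the authors' table as complement C4-like; C4 is cleaved during classical and lectin complement activation, and its larger fragment attaches to surfaces. It had 9184, 10568, 8591, 10437 and 14158 scaled counts in Cmg2-KO 1 to 5, against 4817, 8429, 7291, 6410.1 and 5755 in WT 1 to 5. The genotypes did not overlap, though the lowest Cmg2-KO library, replicate 3, was only slightly above the highest WT library, replicate 2. The Cmg2-KO mean was 1.62 times the WT mean, and the log2 fold change was 0.70 ± 0.16 (SE). Per kilobase of gene length it stood at 1940.2 scaled counts in Cmg2-KO and 1199 in WT, the highest levels among the members in each genotype.

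The span of this gene model is 205.868 kb for 5.457 kb of gene length, and it contains Pbx2 and a pair of noncoding models. In the RefSeq annotation of GRCr8 the rat has separate genes C4a and C4b with 16 genes between them, Pbx2 included, and no gene under the identifier of LOC103689965. Whether its reads came from C4a, C4b or both cannot be told from the table. The starts of C4a and C4b are printed to show their likeness, at chr20:4010107-4010406 and chr20:4201729-4202028 of GRCr8, both on the plus strand, with differing aligned bases in capitals.
C4a: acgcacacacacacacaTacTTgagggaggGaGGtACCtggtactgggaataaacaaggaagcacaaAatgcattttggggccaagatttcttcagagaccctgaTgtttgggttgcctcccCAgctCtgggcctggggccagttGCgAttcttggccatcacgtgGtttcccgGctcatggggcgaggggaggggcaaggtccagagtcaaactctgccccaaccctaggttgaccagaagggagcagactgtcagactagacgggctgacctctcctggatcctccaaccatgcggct
C4b: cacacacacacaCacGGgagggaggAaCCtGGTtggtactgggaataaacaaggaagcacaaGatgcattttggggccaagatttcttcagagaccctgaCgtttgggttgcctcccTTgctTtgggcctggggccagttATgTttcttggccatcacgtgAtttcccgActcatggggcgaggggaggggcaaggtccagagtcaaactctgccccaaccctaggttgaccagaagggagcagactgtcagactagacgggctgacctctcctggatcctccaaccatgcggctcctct
They were identical at 276 of 295 aligned positions, or 93.6%, and at all 50 positions after the start.

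Pbx2 (chromosome 20, 4357733 to 4362682, plus strand), a homeodomain partner of HOX proteins, differed little but without overlap. It had 2639, 2639, 2721, 2652 and 2618 scaled counts in Cmg2-KO 1 to 5, against 2494, 2499.6, 2593, 2421 and 2213 in WT 1 to 5. The Cmg2-KO mean was 8.58% above the WT mean, a log2 fold change of 0.12 ± 0.05 (SE) that was 0.05 ± 0.06 under quantile normalization. The Cmg2-KO libraries had a coefficient of variation of 1.49%, the smallest of any member, against 5.85% in WT. The noncoding model AABR07044388.2 (chromosome 20, 4436419 to 4486680, plus strand) had 2469, 2419, 2367, 2232 and 2133 scaled counts in Cmg2-KO 1 to 5, against 2174, 2436, 3533, 2783 and 4774 in WT 1 to 5. Here too Cmg2-KO libraries were close together, while WT 5 and WT 3 stood high. The log2 fold change was -0.38 ± 0.18 (SE), and -0.21 without WT 5. Its neighbour AABR07044388.3 (4426689 to 4428527, minus strand), a long intergenic noncoding RNA, averaged 134 ± 21.4 scaled counts in Cmg2-KO and 166 ± 19.99 in WT (SD, n = 5). The log2 fold change of AABR07044388.3 was -0.31 ± 0.13 (SE), and r between the noncoding pair was 0.62 within genotypes. All of these models lie inside the span of the C4-like gene, and reads cannot be told apart where exons overlap.

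The Hsp70 gene LOC108348108 (chromosome 20, 4877324 to 4879779, minus strand) varied widely among the Cmg2-KO libraries. The authors' table describes it as heat shock protein 1A, while RefSeq lists its gene identifier as Hspa1b; Hspa1a and Hspa1b encode near-identical stress-inducible chaperones, so reads can be shared. It had 163, 334, 61.6, 388 and 852 scaled counts in Cmg2-KO 1 to 5, against 154, 115, 158, 109 and 105 in WT 1 to 5. Cmg2-KO 3 was below every WT library and Cmg2-KO 5 far above, a 13.8-fold range within the genotype. The log2 fold change of 1.02 ± 0.57 (SE) was 0.59 without Cmg2-KO 5 and 1.53 without Cmg2-KO 3. Among Cmg2-KO libraries, Cmg2-KO 5 was also highest and Cmg2-KO 3 lowest for the C4-like gene. WT libraries did not follow that order. The lowest WT library for the C4-like gene, WT 1 at 4817, had 154 scaled counts of the Hsp70 gene. The highest, WT 2 at 8429, had 115. Over all 10 libraries with genotype means subtracted, r between the pair was 0.58, and r was not taken for each genotype.

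The remaining class III genes differed moderately. Slc44a4 (4593389 to 4609631, plus strand), a gene of the choline transporter-like family, had 395, 319.8, 343, 527 and 305 scaled counts in Cmg2-KO 1 to 5, against 684, 402, 568, 460.1 and 398 in WT 1 to 5. In 4 of 5 Cmg2-KO libraries it was below every WT library, Cmg2-KO 4 being the exception, and the log2 fold change was -0.41 ± 0.19 (SE). The adjoining genes Vwa7 (5008508 to 5017669, plus strand) and Sapcd1 (5018264 to 5020150, minus strand) were both higher. Vwa7, which encodes a protein with a von Willebrand factor A domain, averaged 98.2 ± 13.7 scaled counts in Cmg2-KO and 79.2 ± 8.36 in WT (SD, n = 5), with 4 Cmg2-KO libraries above all WT libraries; its log2 fold change was 0.30 ± 0.14 (SE), and 0.46 under quantile normalization. Sapcd1, a gene with an APC suppressor domain, had 19.99, 25.5, 31.3, 24.6 and 25.0 scaled counts in Cmg2-KO 1 to 5, against 12.2, 15.6, 19.98, 19.2 and 17.9 in WT 1 to 5. Its genotypes were apart by the narrowest margin, Cmg2-KO 1 lying just above WT 3, and the log2 fold change was 0.55 ± 0.22 (SE). Of 36 genes on a list of class III complement, TNF, heat shock and neighbouring genes, those in the table under their listed symbols were Pbx2, higher, and Slc44a4, lower, so the median of this pair was -0.14.

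**Figure D2:**
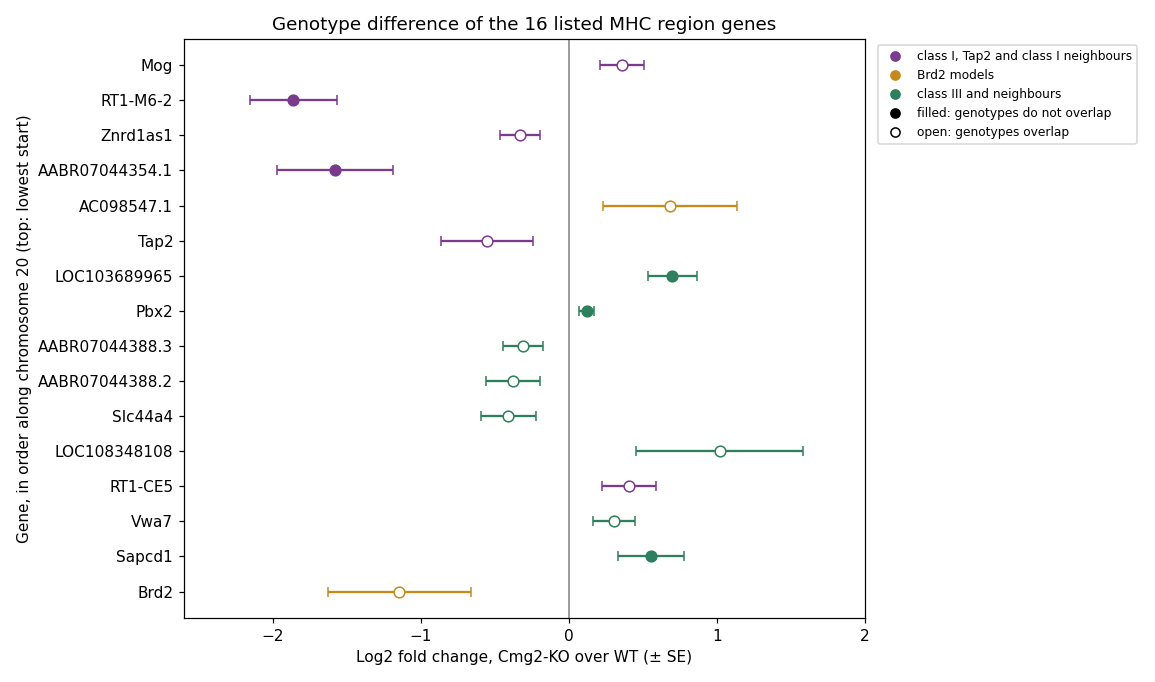
Log2 fold change (horizontal axis, Cmg2-KO over WT, with SE bars) of the 16 genes, listed from top to bottom by their start on chromosome 20; filled points are genes at which the genotypes do not overlap. Values run from -1.86 at RT1-M6-2 to 1.02 at LOC108348108, and neighbours often lie on opposite sides of 0. The value of the pseudogene AABR07044354.1 rests on very few reads and depends on the pseudocount.

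A pair of gene models was described as the same gene and went opposite ways. Brd2, a bromodomain protein that binds acetylated histones and whose gene sits among class II genes, is listed at 5262120 to 5269337 on the plus strand of chromosome 20. AC098547.1 (3910555 to 3917426, minus strand) carries the description of Brd2 with the NCBI gene number under which RefSeq lists its only Brd2 gene. The Brd2 model had 76.5, 36.9, 47.0, 61.4 and 58.2 scaled counts in Cmg2-KO 1 to 5, against 280.4, 109, 40.0, 253 and 85.2 in WT 1 to 5. The high values were those of WT 1 and WT 4, while WT 3 lay inside the Cmg2-KO range, and the log2 fold change was -1.15 ± 0.48 (SE). It was -0.85 without WT 1, -0.88 without WT 4 and -1.54 without WT 3.

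AC098547.1 had 77.3, 63.3, 272, 70.0 and 233 scaled counts in Cmg2-KO 1 to 5, against 53.8, 101, 45.5, 104 and 76.8 in WT 1 to 5. Only Cmg2-KO 3 and Cmg2-KO 5 stood above the WT range. Its log2 fold change was 0.69 ± 0.45 (SE), 0.38 without Cmg2-KO 3 and 0.44 without Cmg2-KO 5, and was 1.04 with edgeR and 1.05 with DESeq2, both run without WT 4. Summed per library, the models together had 199 ± 98.9 scaled counts in Cmg2-KO and 229.6 ± 115 in WT (SD, n = 5), the Cmg2-KO range of 100.2 to 319 lying inside the WT range of 85.5 to 357. The Brd2 model took 14.8% to 49.7% of that sum in Cmg2-KO libraries and 46.8% to 83.9% in WT libraries. The sum was examined after the values were seen.

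**Figure D3:**
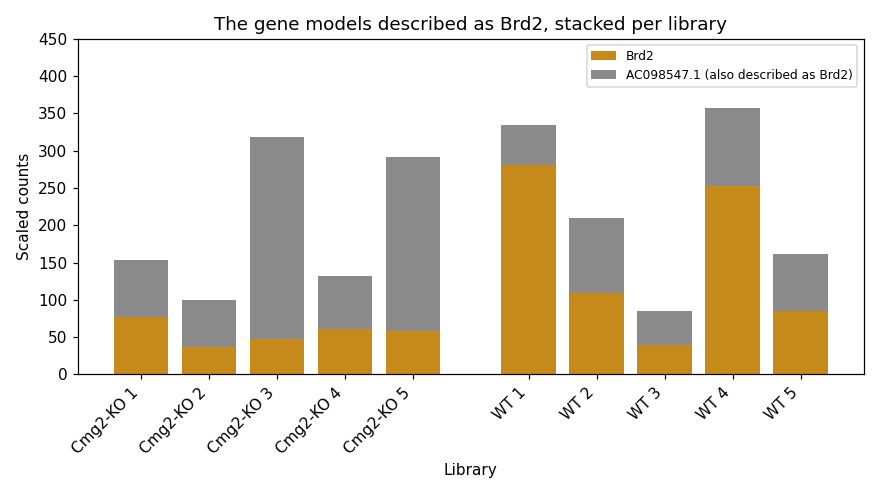
Scaled counts (vertical axis, stacked bars from 0) of the Brd2 model (orange) and of AC098547.1 (grey), both described as Brd2, in Cmg2-KO libraries (left) and WT libraries (right). Brd2 is largest in WT 1 and WT 4, at 280.4 and 253, and AC098547.1 in Cmg2-KO 3 and Cmg2-KO 5, at 272 and 233.

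Within genotypes the members did not vary as a block. With the genotype means subtracted, 58 of the 120 pairs of members had a positive Pearson's r over the 10 libraries and 62 a negative one, with a median of -0.02. The highest values were 0.64 for RT1-CE5 with Sapcd1, 0.62 for the noncoding pair inside the C4-like span and 0.61 for RT1-CE5 with AC098547.1. The lowest were -0.72 for Znrd1as1 with Pbx2 and -0.68 for RT1-M6-2 with Pbx2. These are descriptions over few libraries, and the points of all pairs come from the same libraries. RT1-M6-2 and the C4-like gene had an r of -0.02.

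**Figure D4:**
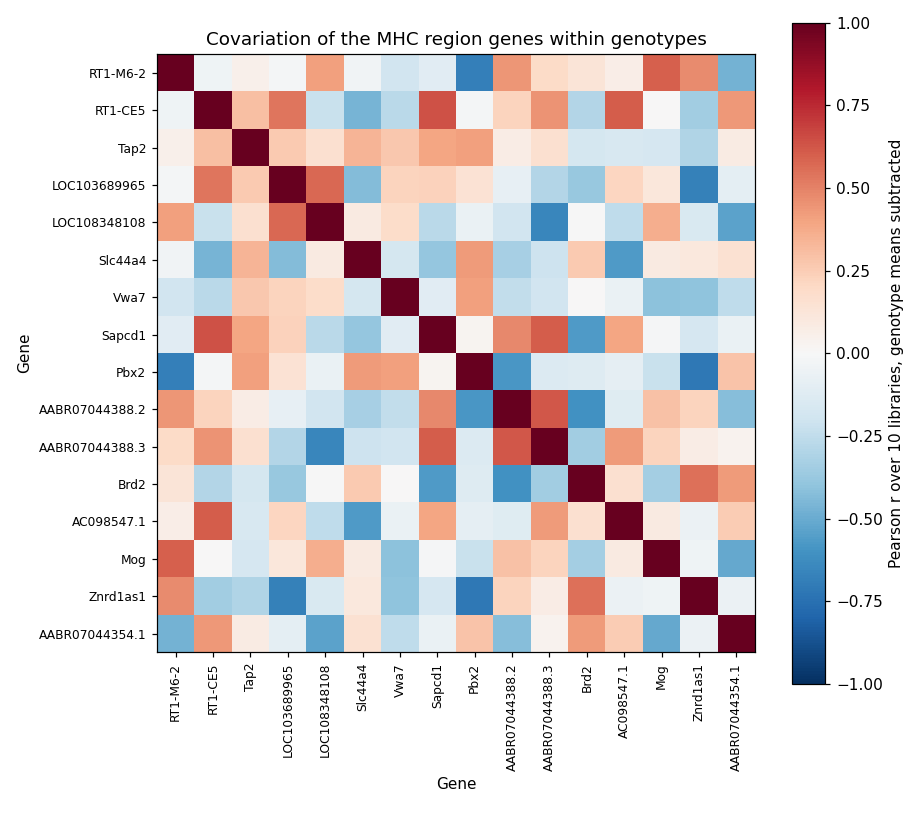
Pearson's r (colour, red positive and blue negative) between each pair of the 16 genes over 10 libraries after each genotype's mean log2 value was subtracted. Red and blue are about equally common, with 58 pairs positive and 62 negative.

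Outside the MHC, the genes most like the leading members within genotypes were found among 915 named genes of the table with a mean of at least 10 scaled counts. For RT1-M6-2 they were Itga3, an integrin subunit that binds laminin (r = 0.89), Cdca7, a cell-cycle-linked gene (r = 0.89), and Ccdc92 (r = 0.89), over 10 libraries. Itga3 was itself higher in Cmg2-KO, at 4843 ± 298 scaled counts against 4259 ± 312 in WT, while Cdca7 had 75.3 ± 13.3 in Cmg2-KO and 121 ± 41.3 in WT (SD, n = 5). For the C4-like gene they were Pgs1, a cardiolipin synthesis enzyme (r = 0.85), Tbc1d22a (r = 0.84) and Itga7, the muscle laminin-receptor integrin (r = 0.82). Pgs1 had 1031 ± 113 scaled counts in Cmg2-KO and 899 ± 76.3 in WT, and Itga7 247 ± 35.0 in Cmg2-KO and 339 ± 126 in WT (SD, n = 5). These are the best of many genes over few libraries and are given as a description.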

How the data were processed

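Flash-frozen lung was extracted with Trizol and the RNA made into libraries with an NEBNext Ultra kit, per the labels' protocols. The submitters' processing notes name HISAT2 2.0.5 and featureCounts 1.5.0-p3. Genome build, annotation and the tool behind the fold changes: not given in the sources used here. The deposited library columns hold a signal, read counts divided by a size factor per library, as the values show: in 9 libraries 100% of values were whole multiples of the worth of 1 read, within 0.02 reads. Per the file headers, the authors also deposited p-values, a log2 fold change and its linear ratio, and a gene length, which was used as other information for levels per kilobase. Reads behind the 1319 genes ranged from 1289524 to 1620198 per library, and total depth is unknown; intervals of counting error are not given.

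limma 3.58.1 (trend, robust) in R 4.3.3 was fitted to log2(scaled count + 1) over the 1308 genes above 0.5 in at least 5 libraries, with Benjamini-Hochberg adjustment over the 19894 genes implied by the authors' adjusted p-values. All 16 members passed the filter. Log2 fold changes and SEs come from this fit. The plan for a count table, edgeR's quasi-likelihood test, was replaced by the planned test for normalized values. edgeR 4.0.16 and DESeq2 1.42.0 used whole reads recovered in 9 libraries, without WT 4. The step of WT 4, 1.011, was treated as too close to 1, although its values were also whole multiples of that step. The fit was tested on simulated data. Members and lists were chosen with earlier results of these data known. Every member is named; for likeness the 3 genes with the highest within-genotype r are named. Alternatives covered scaling, pseudocount, filter, replicate block, test and leaving out each library. Promoters come from RefSeq (GRCr8), matched by symbol or gene identifier, which named 11 of 16 members.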

Additional observations from a re-analysis of the deposited data

Results flagged for a closer look

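Dixon's gap test asks whether the extreme library of a genotype is separated from its nearest neighbour by over 0.71 of the whole range, here on the log2 scale. Over 32 groups of 5 libraries, 2 per member, 1 library passed, where chance at 1 in 20 gives about 1.6. It was RT1-CE5 in WT 1, at 1206 scaled counts, with the other WT libraries between 1992 and 2441. The same library was the lowest WT library for the C4-like gene, at 4817, and for Sapcd1, at 12.2, and the highest for Brd2, at 280.4.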

How the results depend on the processing

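The split stayed at 8 higher and 8 lower under every alternative except the filter on a mean of at least 10, which left out AABR07044354.1. Log2 fold changes ranged from -2.02 to -1.66 for RT1-M6-2 and from 0.55 to 0.80 for LOC103689965. Summing the models described as Brd2, chosen after seeing the data, gave -0.18, opposite in sign to AC098547.1 alone. The sum also holds the Brd2 model, which was lower in Cmg2-KO by mean. The count of genes past limma's threshold, 3, was 5 with quantile normalization, 1 with edgeR, 49 with DESeq2 and between 1 and 6 when a library was left out; the cause was not tested. With the replicate block it was 0. Whether the replicate numbers pair the libraries cannot be told from these values. Same-numbered libraries deviated together with r from -0.02 to 0.09, and differently numbered ones with r from -0.14 to 0.07. Of the 5 Cmg2-KO libraries, 2 correlated best with their own number. Scaling left the median over all genes between -0.16 and -0.15. Likeness values stayed between 0.73 and 0.94. Depth limits AABR07044354.1, with 3 reads over the Cmg2-KO libraries.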

Other observations

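The window also held a pair of unnamed transcript models that the rule leaves out. The model at 3209082 to 3216165 of chromosome 20 had 13.9 ± 5.53 scaled counts in Cmg2-KO and 29.9 ± 11.8 in WT, and that at 3286612 to 3287045 had 1.98 ± 1.65 in Cmg2-KO and 6.85 ± 2.46 in WT (SD, n = 5). The genotypes overlapped at both. Together with RT1-M6-2, Znrd1as1 and AABR07044354.1 they were lower in Cmg2-KO by mean, and Mog was the member of that stretch that was higher.

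Spread between libraries was uneven across the members. In WT it was widest, relative to the mean, for Brd2, with a coefficient of variation of 69.5% against 26.8% in Cmg2-KO, followed by Tap2, at 51.7% against 21.0% in Cmg2-KO. In Cmg2-KO it was wide for LOC108348108, at 84.7% against 19.9% in WT, and for AC098547.1, at 70.5% against 34.9% in WT.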
